A study of Mus musculus with 8 samples.

Results

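The genes *Neurog1*, *Neurog2*, *Neurog3*, *Neurod1*, *Neurod4*, *Atoh1*, *Olig1* and *Olig2* encode proneural and Olig transcription factors of the basic helix-loop-helix (bHLH) family. They were taken by name from the annotation of an Agilent mouse expression array, on which 10 of 55681 probes that are not controls carry 1 of these 8 names, out of 36406 names in all. The array was hybridized with RNA of E14Tg2A.4 mouse embryonic stem (ES) cells, a feeder-independent line derived from strain 129 embryos. Untreated cells (n = 4) were compared with cells treated with 1 µM all-trans retinoic acid (RA) for 3 days in medium without leukemia inhibitory factor (LIF, n = 4), so that RA and the loss of LIF changed together and cannot be told apart. All samples came from the same line, which carries no knockdown or transgene in this experiment, and the samples are described as biological replicates.

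Proneural factors bind DNA at E-boxes, sites of the form CANNTG, as dimers with the broadly expressed E proteins Tcf3, Tcf4 and Tcf12. They drive progenitors to leave the cell cycle and to become neurons, and they raise Notch ligands such as Dll1, through which neighbouring cells produce Hes repressors and stay progenitors. Id proteins lack the DNA-binding basic region and hold E proteins in inactive dimers. Neurogenins act early in sensory, cortical and spinal precursors, with Neurog3 best known for the endocrine cells of the pancreas, and Neurod1 and Neurod4 act after them. Atoh1 specifies hair cells and cerebellar granule cells, and Olig1 and Olig2 act in ventral spinal progenitors that give rise to motor neurons and oligodendrocytes. RA is used to drive ES cells towards the neural lineage, and the comparison asks how these factors responded to it.

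The array reads these genes with probes of 60 bases. *Neurog3* and *Neurod1* have a pair of probes each, at different positions of the transcript, and their first 30 bases are shown because these probes carry most of what follows and because the pair for *Neurog3* gave unlike results. The RNA was copied from its 3′ end with an oligo-dT primer. All positions of probes are on mm9.
Neurog3, base 1480 of transcript NM_009719: gtctcccgtgtctaaagtgtgagttgcagg
Neurog3, base 128 of transcript ENSMUST00000105449: tattcttttgagtcgggagaactaggtaac
Neurod1, base 923 of transcript NM_010894: cgctcagcatcaatggcaacttctctttca
Neurod1, base 1611 of the same transcript: tttgttgtgattttgtacagaatttttaat

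*Neurog3*, *Neurod1* and *Atoh1* are the genes of the group that fell most, and the 250 bases before their start sites are printed below, so that their promoters can be read beside the values. The sequences are those of RefSeq on GRCm38.p6, read on the strand of the gene, and 7 of the 8 genes were matched in the table used, all but *Olig1*. Capitals mark E-boxes, CANNTG, which reads the same on both strands, and a half-site of retinoic acid receptors, AGGTCA or TGACCT.
Neurog3, chr10:62132840-62133089, + strand: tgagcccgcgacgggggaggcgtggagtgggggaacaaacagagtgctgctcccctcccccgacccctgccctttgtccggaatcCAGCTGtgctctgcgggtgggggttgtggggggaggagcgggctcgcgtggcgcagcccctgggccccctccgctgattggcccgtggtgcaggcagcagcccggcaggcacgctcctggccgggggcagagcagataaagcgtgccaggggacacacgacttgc
Neurod1, chr2:79456637-79456886, - strand: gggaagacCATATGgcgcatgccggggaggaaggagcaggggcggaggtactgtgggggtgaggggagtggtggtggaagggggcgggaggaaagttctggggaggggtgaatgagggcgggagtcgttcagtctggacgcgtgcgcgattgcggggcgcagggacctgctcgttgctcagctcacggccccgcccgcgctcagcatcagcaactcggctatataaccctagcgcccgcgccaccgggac
Atoh1, chr6:64728875-64729124, + strand: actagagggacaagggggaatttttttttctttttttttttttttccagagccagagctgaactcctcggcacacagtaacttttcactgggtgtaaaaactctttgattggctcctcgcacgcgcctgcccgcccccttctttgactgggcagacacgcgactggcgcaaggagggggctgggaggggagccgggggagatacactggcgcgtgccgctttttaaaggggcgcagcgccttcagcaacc
The *Neurog3* promoter holds 1 E-box, CAGCTG, at -165 relative to the start, and the *Neurod1* promoter holds 1, CATATG, at -242. No E-box lies in this window of *Atoh1*, and no half-site in any of the 3 windows. The half-site was found in *Neurog1* alone of the genes matched. Of 32851 mouse promoters of the same length, 66.2% hold an E-box and 14% a half-site in either orientation, so that neither motif is rare and a match is a description of the sequence.

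Of the 8 genes, 5 were lower after RA (*Neurod1*, *Atoh1*, *Neurog3*, *Olig1* and *Neurog1*), 1 was higher (*Olig2*), and *Neurog2* and *Neurod4* did not pass the test. A gene was called when limma gave a Benjamini-Hochberg adjusted p under 0.05 over all 55681 probes and the fold exceeded 1.5. Over all probes 34.6% were called, and with 1 probe per name 22.1% of the names on the array were called lower and 13.9% higher, so that calls in both directions were common on this array. Among names well above background on all 4 untreated arrays, as *Neurod1*, *Atoh1*, *Neurog3* and *Olig1* were, 31.2% were called lower. The median log2 change was -0.97 over the 8 genes and -0.28 over all names. In bulk RNA fewer cells of a type and less RNA per cell cannot be told apart. Signals below are log2 values relative to the 75th percentile of the array, so that levels of a gene can be compared between arrays but not between probes.

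**Figure D1:**
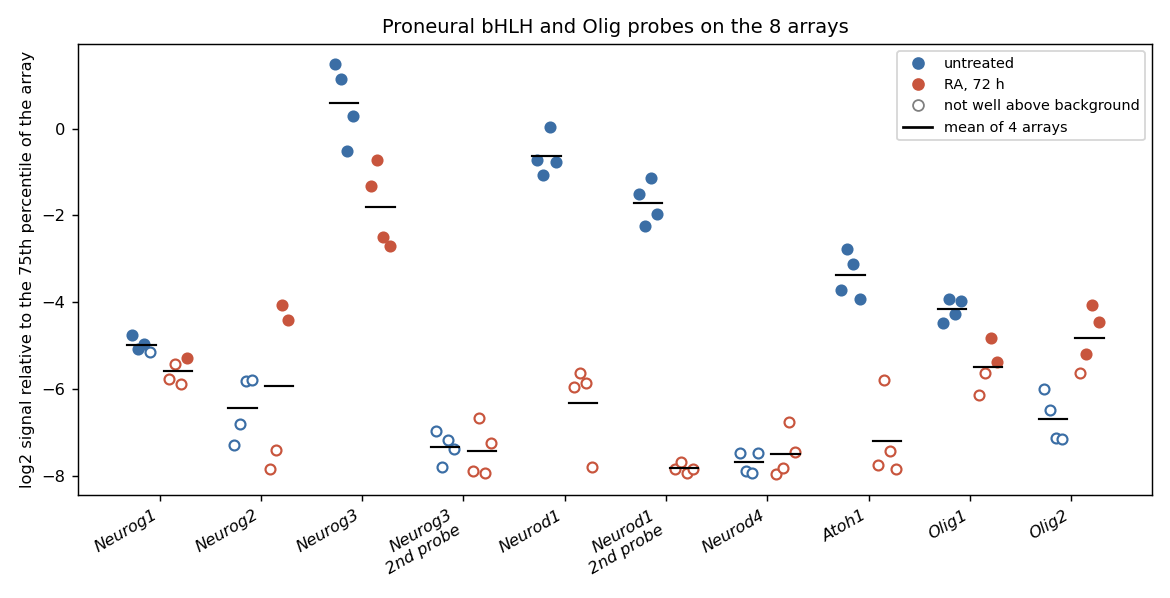
Log2 signal, relative to the 75th percentile of the array, of the 10 probes on the 4 untreated (blue) and 4 RA-treated (red) arrays, with open circles for spots not well above background and bars for the mean of 4 arrays. Both Neurod1 probes and Atoh1 have filled circles in untreated cells and open ones after RA, and the 3′ Neurog3 probe is filled on all 8 arrays.

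*Neurod1*, which carries neurons through terminal differentiation, showed the largest fall of the group. The probe on chromosome 2 (79294309-79294368, - strand) read -0.73, -1.06, 0.03 and -0.77 in untreated replicates 1 to 4 and -5.94, -5.63, -5.87 and -7.78 in RA replicates 1 to 4. The conditions did not overlap, and each untreated array was well above background whereas no RA array was. The means were -0.63 ± 0.46 (SD, n = 4) and -6.30 ± 0.99 (SD, n = 4), a log2 change of -5.67 (SE 0.47, limma adjusted p = 3.21e-05). Since the RA signal lay at background, the fall is given as a bound: *Neurod1* was at least 33.4-fold lower after RA, where the dim side of the ratio is set to the lowest signal that was well above background on each array. This is the rule for every bound below, and the bounds hold for this background treatment. The log2 change of *Neurod1* was -3.03 with the normexp background correction, which adds an offset of 50 to each signal, and -2.90 in the authors' processed values, both still called.

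The second *Neurod1* probe (79293621-79293680), further along the same transcript, gave the same picture. It read -1.51, -2.24, -1.13 and -1.97 in untreated cells and -7.83, -7.67, -7.93 and -7.84 after RA. It was well above background on 4 of 4 untreated and 0 of 4 RA arrays, and fell at least 15.8-fold (log2 change -6.11, SE 0.24, limma adjusted p = 1.80e-06). Untreated replicate 3 was the highest of the untreated arrays on both probes. The first probe changed by -6.51 within slide 1 and -4.83 within slide 2, each slide holding 2 arrays of each condition.

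*Neurod4*, a relative that acts with Neurod1 in neuronal precursors, was not well above background on any of the 8 arrays. Its signals ranged from -7.95 to -6.74, and the log2 change was 0.20 (SE 0.27, limma adjusted p = 0.574). No level of *Neurod4* could be measured in either condition, so that the comparison of the pair adds nothing to the fall of *Neurod1*. The change of *Neurod1* minus that of *Neurod4*, taken within arrays, was -5.87 (SE 0.66, two-sided exact permutation test over 70 splits, p = 0.0286, adjusted p = 0.0714 over the 5 pairs of relatives compared, n = 4 and 4). A p of 0.0286 is the smallest that 4 against 4 arrays can give.

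*Atoh1* (chromosome 6, 64681161-64681220, + strand) was dim but detected in untreated cells. Its signal was -3.70, -2.78, -3.11 and -3.91 there and -7.75, -5.78, -7.41 and -7.84 after RA. All untreated arrays were well above background, no RA array was, and RA replicate 2 was the highest of the RA arrays as untreated replicate 2 was of the untreated ones. *Atoh1* was at least 5.0-fold lower after RA, with means of -3.38 ± 0.52 and -7.19 ± 0.96 (SD, n = 4 each) and a log2 change of -3.82 (SE 0.47, limma adjusted p = 0.000269). The change was -4.39 within slide 1 and -3.25 within slide 2, and it shrank to -1.21 with normexp and -0.98 in the authors' values, both still called.

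*Neurog3*, the endocrine determinant, was the one gene of the group that was well above background on all 8 arrays, and it fell 5.29-fold. The probe near the 3′ end of the transcript (chromosome 10, 61597452-61597511, + strand) read 1.48, 1.13, -0.52 and 0.28 in untreated replicates 1 to 4 and -1.32, -0.73, -2.50 and -2.69 in RA replicates 1 to 4. Every RA array lay below every untreated array. The means were 0.59 ± 0.89 and -1.81 ± 0.94 (SD, n = 4 each), a log2 change of -2.40 (SE 0.55, limma adjusted p = 0.00804), with -2.48 within slide 1 and -2.32 within slide 2. Replicates 1 and 2 were above replicates 3 and 4 in both conditions, and within same-numbered cultures the untreated signal was 6.94, 3.64, 3.95 and 7.88 times the RA signal for replicates 1, 2, 3 and 4.

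The second *Neurog3* probe (61596051-61596110), near the 5′ end of an Ensembl transcript, was not well above background on any array. Its signals ranged from -7.93 to -6.66, and its log2 change was -0.10 (SE 0.31, limma adjusted p = 0.800). The statement on *Neurog3* therefore rests on 1 probe. Averaged over both probes, the change was -1.25 and was still called.

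*Neurog1* and *Neurog2*, the neurogenins of sensory and cortical precursors, lay near background. *Neurog1* (chromosome 13, 56352616-56352675, - strand) read -4.75, -5.06, -4.95 and -5.15 in untreated cells and -5.77, -5.42, -5.89 and -5.28 after RA. The RA arrays were all below the untreated arrays, but only 3 untreated arrays and 1 RA array were well above background. *Neurog1* was 1.53-fold lower after RA (log2 change -0.61, SE 0.18, limma adjusted p = 0.0265), and -0.67 within slide 1 and -0.55 within slide 2. This call was lost with the replicate number as a block (limma adjusted p = 0.0735), without untreated replicate 1 or without RA replicate 1 or 3 (limma adjusted p = 0.0663, 0.0786 and 0.0749), and with quantile normalization, which moves the median of all probes from -0.28 to -0.0026 and the change of *Neurog1* to -0.28. It was also lost with normexp (-0.29), and the change all but vanished with normexp and quantile normalization (-0.056) and in the authors' values (-0.055).

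*Neurog2* (chromosome 3, 127337805-127337864, + strand) was not well above background on any untreated array. It read -7.29, -6.81, -5.80 and -5.78 in untreated cells and -7.83, -7.39, -4.05 and -4.41 after RA. RA replicates 3 and 4 were well above background and replicates 1 and 2 were not, so that the conditions overlapped and the RA arrays split into a pair near the floor and a pair above it. The log2 change was 0.50 (SE 0.88, limma adjusted p = 0.657). It turned to -0.12 without RA replicate 3 and to -0.0027 without RA replicate 4. The split does not follow the slides, since RA replicates 1 and 4 shared slide 1 and replicates 2 and 3 shared slide 2.

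Among the neurogenins, the changes differed from each other by 1.79 (*Neurog1* minus *Neurog3*, SE 0.64), 2.91 (*Neurog2* minus *Neurog3*, SE 1.64) and -1.11 (*Neurog1* minus *Neurog2*, SE 1.09) on the log2 scale. By the exact permutation test the p-values for these differences were 0.0857, 0.171 and 0.343 (adjusted p = 0.143, 0.214 and 0.343, n = 4 and 4). None passed. Within same-numbered cultures the differences of *Neurog1* and of *Neurog2* from *Neurog3* had one sign in 4 of 4 pairs, where an exact sign-flip test cannot go below p = 0.125 (adjusted p = 0.156 for both). Since *Neurog2* was not well above background on any untreated array, the sizes of the differences that involve it are no measurement.

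*Olig1* and *Olig2*, adjacent genes on chromosome 16 whose probes lie 43329 bases apart on the + strand, moved in opposite directions. *Olig1* (91271799-91271858), which promotes oligodendrocyte maturation, read -4.48, -3.91, -4.27 and -3.98 in untreated cells and -6.14, -5.63, -4.82 and -5.38 after RA. It was well above background on 4 untreated and 2 RA arrays and was 2.52-fold lower after RA (means -4.16 ± 0.27 and -5.49 ± 0.55, SD, n = 4 each, log2 change -1.33, SE 0.28, limma adjusted p = 0.00498). *Olig2* (91228470-91228529), which patterns motor neuron progenitors, read -5.99, -6.47, -7.11 and -7.15 in untreated cells and -5.63, -5.18, -4.06 and -4.45 after RA. No untreated array and 3 RA arrays were well above background, and *Olig2* was at least 1.52-fold higher after RA (means -6.68 ± 0.55 and -4.83 ± 0.71, SD, n = 4 each, log2 change 1.85, SE 0.39, limma adjusted p = 0.00528). In both genes all RA arrays lay on one side of all untreated arrays, as they did for 25.2% of names below and 15.2% above.

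Taken at the signals as measured, the response of *Olig1* minus that of *Olig2* was -3.18 (SE 0.38, exact permutation test, p = 0.0286, adjusted p = 0.0714 over 5 pairs, n = 4 and 4). Its size is no measurement, since *Olig2* was at background on all untreated arrays. Both signals are close to background, and the size of the 2 changes depends on how background is treated. With the normexp background correction *Olig1* changed by -0.56 and *Olig2* by 0.22, and in the authors' processed values by -0.31 and 0.45, which leaves neither past 1.5-fold. The directions were kept. With quantile normalization *Olig1* changed by -1.01 and narrowly missed the call (limma adjusted p = 0.0504). Within slides 1 and 2, *Olig1* changed by -1.38 and -1.28 and *Olig2* by 1.51 and 2.19.

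**Figure D2:**
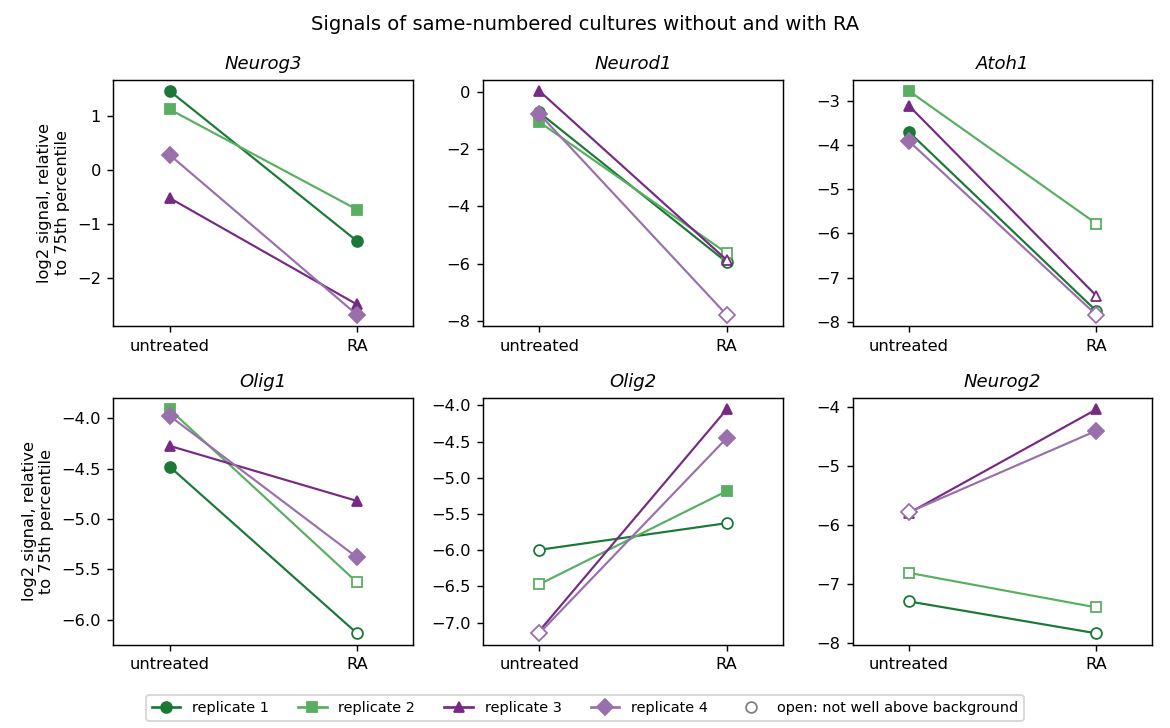
Log2 signal, relative to the 75th percentile of the array, of 6 of the genes in untreated and RA-treated cultures, with a line joining cultures of the same replicate number and open symbols for spots not well above background. Neurog3, Neurod1, Atoh1 and Olig1 fall in all 4 cultures and Olig2 rises in all 4, while Neurog2 rises in replicates 3 and 4. In replicates 1 and 2 the Neurog2 line slopes down between spots that were not well above background in either condition.

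The RA arrays of replicates 3 and 4 stood apart from those of replicates 1 and 2 in several of these genes. They were the higher pair for *Neurog2*, *Olig1* and *Olig2* and the lower pair for *Neurog3*. In untreated cells replicates 3 and 4 were likewise the higher pair for *Neurog2*, at background, and the lower pair for *Neurog3*. There they were the lower pair for *Olig2*, and *Olig1* did not separate the pairs. The summed level of 7 primitive endoderm markers was 32.6, 22.5, 37.9 and 34.3 in RA replicates 1 to 4, and that of 7 neural progenitor markers was 114, 85.4, 80.2 and 92.0, where a level is the signal as a multiple of the 75th percentile and a sum is compared only between arrays. The full endoderm sum was higher in replicates 3 and 4 than in 1 and 2. *Foxa2* alone sets the order of the endoderm sum, at 16.4, 14.6, 27.0 and 24.4, and the other 6 markers sum to 16.1, 7.93, 10.98 and 9.87, highest in replicate 1. Neither these nor the progenitor sum separates the pairs. Other sums did: replicates 1 and 2 were above 3 and 4 in the sums of the ES cell markers (28.1 and 39.4 against 25.3 and 17.7), the neuron markers (3.23 and 4.19 against 1.84 and 2.09), the fibroblast markers (47.6 and 49.7 against 31.6 and 36.4) and the mesoderm markers (2.32 and 3.55 against 1.96 and 2.20). *Eomes*, which was not called, carries the order of the mesoderm sum, at log2 signals of -0.75, 0.33, -2.31 and -3.16 in RA replicates 1 to 4. Replicates 3 and 4 were above 1 and 2 in the sum of the oligodendrocyte markers (6.09 and 6.29 against 5.17 and 5.08). In untreated cells replicates 1 and 2 were also above 3 and 4 in the ES cell sum (413 and 410 against 284 and 384). The same held for the untreated neuron sum (19.6 and 21.4 against 12.3 and 14.7). The untreated oligodendrocyte and endoderm sums had the reverse of their RA order, and the fibroblast and mesoderm sums did not separate the pairs. The part of other cell types in the spread among RA cultures was not tested.

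**Figure D3:**
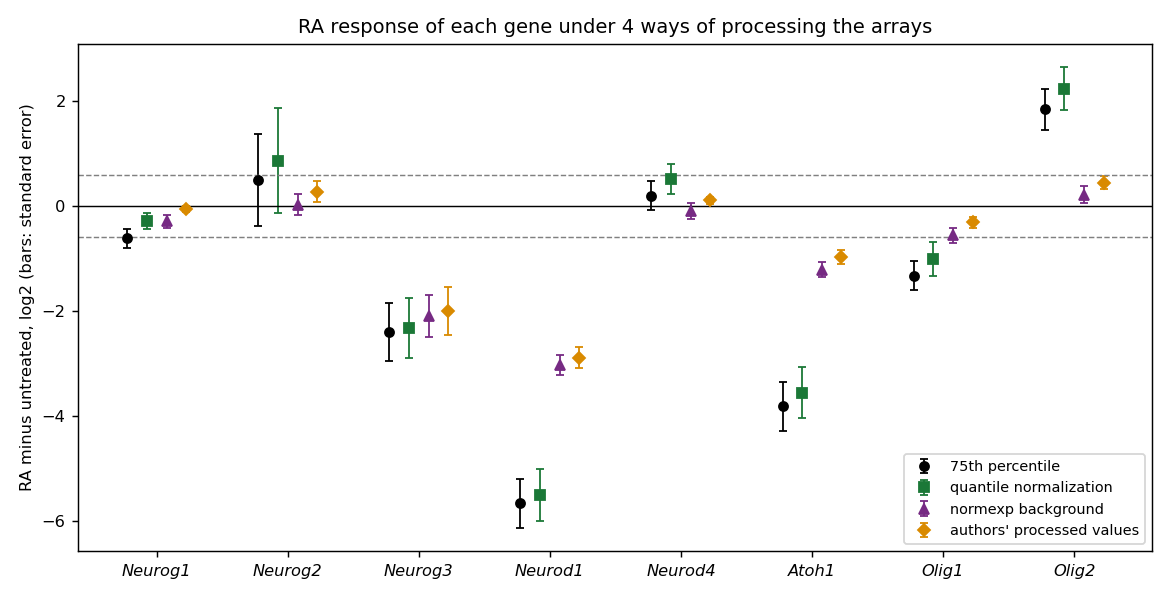
Change of each gene, RA minus untreated, on the log2 scale with its standard error under 4 ways of processing the 8 arrays, with dashed lines at a fold of 1.5. Neurog3, Neurod1 and Atoh1 are below the lower line in all 4, while Neurog1, Olig1 and Olig2 lie between the lines in the authors' processed values.

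Cell type markers give the setting for these values. All 8 ES cell markers, among them *Pou5f1* and *Nanog*, were well above background in untreated cells and fell after RA, from a summed level of 284 to 413 per array to one of 17.7 to 39.4. Of 7 neural progenitor markers, *Nes*, *Vim* and *Fabp7* rose and *Sox1*, *Pax6*, *Msi1* and *Hes5* were not called. The summed level went from between 7.58 and 10.67 to between 80.2 and 114, and without *Vim*, an intermediate filament gene that many other cell types express, it went from between 2.80 and 4.06 to between 9.21 and 11.1. Most of the rise that remains is that of *Nes*, at log2 signals of 0.77 to 1.34 untreated and 3.05 to 3.26 after RA. *Fabp7* was well above background on 1 of 4 untreated arrays. Of 6 neuron markers 4 fell and 1 rose, and the sum went from between 12.3 and 21.4 to between 1.84 and 4.19. All 7 primitive endoderm markers rose, from 1.28 to 2.25 up to 22.5 to 37.9. Of 7 fibroblast markers 6 rose, from 1.16 to 2.01 up to 31.6 to 49.7. Of 6 mesoderm markers 2 fell and none rose, and 1 of these 2, *Mixl1*, was dim on all 8 arrays. Of 5 oligodendrocyte markers 2 rose and 1 fell, with sums of 1.54 to 2.15 and 5.08 to 6.29. Of 5 pancreatic endocrine markers 1 fell and none rose, with sums of 2.58 to 4.88 and 0.463 to 0.912 and with *Gcg* dim on all arrays. The marker that fell was *Chga*, and without it the sums were 0.329 to 0.371 and 0.212 to 0.373. The part of these cell types in the changes of the 8 genes was not tested.

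Of the 7 partners and inhibitors of proneural factors, 4 were higher after RA and 1 was lower. Of the 3 E proteins, *Tcf12* was 4.97-fold higher after RA (log2 change 2.31, SE 0.15, limma adjusted p = 1.04e-05), while *Tcf3* (0.45) and *Tcf4* (-0.10) did not pass the test. Of the 4 Id inhibitors, *Id1* (log2 change 2.66), *Id2* (2.81) and *Id3* (1.98) rose and *Id4* (-1.15) fell, all well above background on all 8 arrays. *Id2* was 7.01-fold higher (SE 0.29, limma adjusted p = 9.29e-05). The median log2 change of the Id list was 2.32.

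Of 7 Hes and Hey repressors, which silence proneural genes downstream of Notch, 3 were lower after RA and none was higher. *Hes3* fell most, 8.20-fold (log2 change -3.04, SE 0.64, limma adjusted p = 0.00514) and 12.3-fold without untreated replicate 3, and *Hey1* fell 2.12-fold (-1.08, SE 0.22, limma adjusted p = 0.00437). The median of the list was -0.29, close to that of all names.

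Of 20 genes known as targets or followers of proneural factors, 10 were lower, 5 were higher and 5 were not called (median log2 change -0.49). The largest falls were those of *Elavl3*, a neuronal RNA-binding protein, at 9.84-fold (log2 change -3.30, SE 0.18, limma adjusted p = 5.32e-06), and of *Stmn2*, a regulator of microtubules in growing axons, at 9.67-fold (-3.27, SE 0.48, limma adjusted p = 0.00071). The largest rises were those of *Dcx*, a microtubule protein of migrating neurons, which was at least 5.78-fold higher (log2 change 4.52, SE 0.28, limma adjusted p = 8.35e-06) and was dim on all untreated arrays, and of *Ebf3*, a transcription factor of differentiating neurons, at 12.3-fold (3.62, SE 0.37, limma adjusted p = 9.58e-05). The list thus held changes of several-fold in both directions.

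Of 13 other neural bHLH factors, 11 were not called, and 5 were dim on all 8 arrays. *Atoh8* rose 16.7-fold, from a level that was well above background on 1 of 4 untreated arrays (log2 change 4.06, SE 0.35, limma adjusted p = 3.74e-05). The 1 factor called lower, *Atoh7* (-0.76), is named after its values were seen and was dim on all arrays.

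Of 14 neural patterning factors, 6 were higher, 2 lower and 6 not called (median 0.87). *Irx3* rose 39.0-fold (log2 change 5.28, SE 0.16, limma adjusted p = 7.88e-07) and *Dbx1* at least 6.91-fold (4.85, SE 0.86, limma adjusted p = 0.00215). The RA signals of *Dbx1* were -4.49, -4.29, -1.41 and -0.41 in replicates 1 to 4, and the bound was 10.58-fold without RA replicate 1 and 4.12-fold without RA replicate 4. Both are homeodomain factors of spinal progenitors. *Rest*, the repressor of neuronal genes outside neurons, fell 3.98-fold (-1.99, SE 0.15, limma adjusted p = 2.41e-05), and *Nkx2-2*, which marks the ventral spinal cord, fell 1.63-fold (-0.71, SE 0.21, limma adjusted p = 0.0267). *Nkx6-1*, another ventral factor, named after its values were seen, rose 10.8-fold (log2 change 3.44, SE 0.24, limma adjusted p = 1.30e-05).

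Genes of the tissues in which Olig2 and Neurog3 are best known moved in both directions. Of 10 genes of motor neurons and oligodendrocytes, 4 were higher, 2 lower and 4 not called. *Pdgfra*, the growth factor receptor of oligodendrocyte precursors and of mesenchyme, rose 7.05-fold (log2 change 2.82, SE 0.29, limma adjusted p = 0.000109), and *Mbp*, a myelin protein, 5.13-fold (2.36, SE 0.16, limma adjusted p = 1.23e-05). *Lhx3*, a motor neuron determinant, fell 8.55-fold (-3.10, SE 0.31, limma adjusted p = 8.52e-05), while the motor neuron genes *Isl1* (3.43-fold) and *Mnx1* (at least 1.13-fold), named after their values were seen, rose. *Mog*, another myelin protein, fell 1.83-fold (-0.87, SE 0.16, limma adjusted p = 0.00232). Of 10 genes of pancreatic endocrine cells, 2 were higher, 1 lower and 7 not called. *Rfx6* was at least 6.75-fold higher (log2 change 4.40, SE 0.76, limma adjusted p = 0.00178), with RA signals of -3.07, -4.89, -1.36 and -1.41 and a bound of 11.2-fold without RA replicate 2. *Chgb* was 2.81-fold higher (1.49, SE 0.22, limma adjusted p = 0.000749) and *Chga*, a granin of secretory granules, was 9.54-fold lower (-3.25, SE 0.33, limma adjusted p = 8.90e-05). *Pdx1*, *Pax4* and *Gcg* were dim on all arrays.

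Over the 8 lists together, 22 of 81 genes were higher, 20 lower and 39 not called, with a median of -0.10. With 1 probe per name, 13.9% of all names were higher and 22.1% lower.

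**Figure D4:**
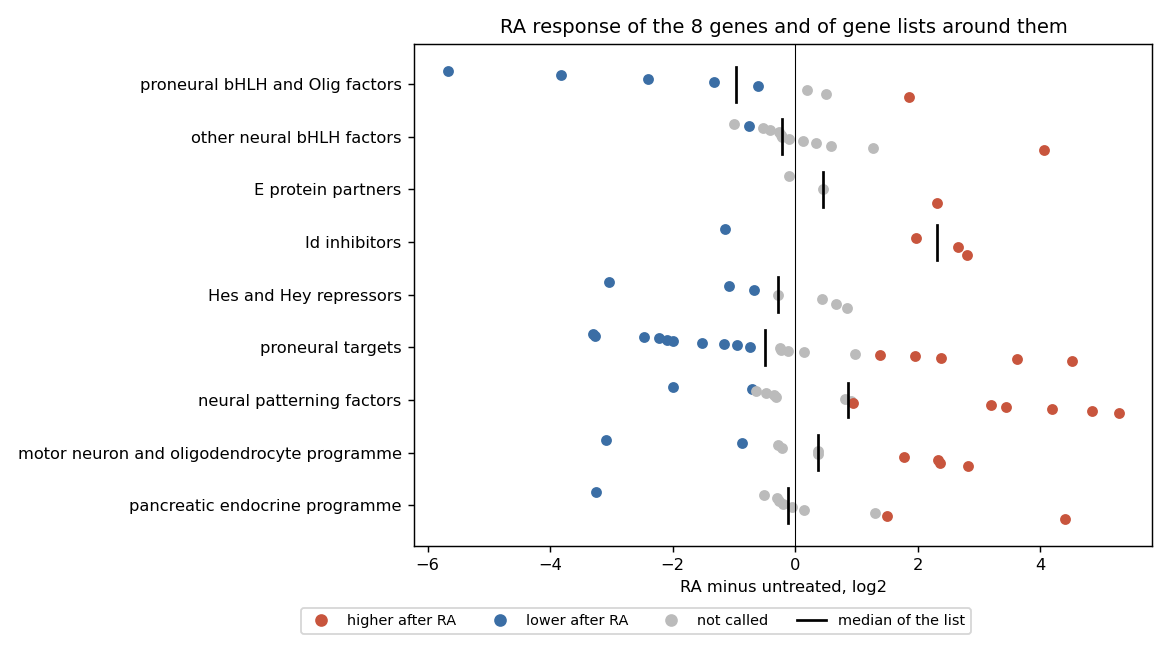
Log2 change, RA minus untreated, of the 8 genes (top row) and of the genes of 8 related lists, 1 point a gene, coloured by the call, with a bar at the median of the list. Of the 8 genes 5 were lower and 1 higher, 3 of 4 Id inhibitors were higher, and the targets moved in both directions.

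Other probes within 100 kb of the genes were examined on mm9, and those named here were picked after their values were seen. No other probe lay this close to *Atoh1*, and 1, which was not called, lay near *Neurod1*. Of 4 probes near *Neurog3*, *Tspan15* at 51111 bases rose (log2 change 1.76, limma adjusted p = 0.00022), 1 fell and 2 were not called. Near *Neurog2*, the kinase gene *Alpk1* at 36045 bases was called higher, from signals that were dim on all untreated arrays to signals well above background on all 4 RA arrays, 2 of the other 4 probes fell and 2 were not called. Around *Neurog1* 3 of 14 probes fell, among them that of the chemokine gene *Cxcl14* (-2.25, limma adjusted p = 1.52e-05). Apart from each other, *Olig1* and *Olig2* had 15 and 16 other probes near them, largely the same ones, of which the same 2 were called lower and none higher, and 11 were dim on all arrays.

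For the 4 genes that were well above background on all arrays of a condition, the genes with the most similar pattern over the 8 arrays were sought among 13815 others, as a description. The measure was Pearson's r over 8 arrays that form 2 conditions, and every gene listed was on average lower after RA, as were the 4 genes themselves. After RA the *Neurod1* and *Atoh1* signals were at background on all arrays and those of *Olig1* on 2, so that their profiles rest in part on unmeasured values and the order of r has little meaning. Among the closest were *Rbm28* (r = 0.997) and *Otud1* (0.996) for *Neurod1*, *Rbp7* (0.995), *Gm2381* (0.995) and *Tesk2* (0.993) for *Atoh1*, *Fam72a* (0.982), *Gm3134* (0.980) and *Cbx1* (0.980) for *Neurog3*, and *Tctn3* (0.985), *Rnf208* (0.983) and *Wdr48* (0.978) for *Olig1*.

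On each array between 33629 and 37175 of 59305 spots that are not controls were well above background and no spot was saturated. The values are limited by the number of arrays and, for dim probes, by the treatment of background.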

How the data were processed

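The authors deposited, for each of the 8 arrays, scanner output of Agilent Feature Extraction (version 10.7.3.1) with spot intensity corrected for background but left unnormalized across arrays, and a log2 table, whose normalization is not given in the sources used here. The log2 columns have a median of 6.89 on every array and correlate at 0.991 to 0.996 with the log2 of the scanner values, so they run in the same direction. Their method is not named, but the changes they give are close to those of normexp with quantile normalization (-2.90 and -2.91 for *Neurod1*, -0.31 and -0.32 for *Olig1*). In R (version 4.3.3), log2 intensity minus the array's 75th percentile was taken, control spots (3671) and outlier spots (124 to 145 per array) were left out, and repeat spots were averaged per probe. No filter on dim probes was applied. RA was tested against untreated with limma (version 3.58.1, lmFit and eBayes), adjusting by Benjamini-Hochberg across 55681 probes, at an adjusted p under 0.05 and a fold above 1.5, the study's thresholds. A gene takes its probe with the highest mean. Pairs of relatives were compared by exact permutation tests.

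Over 27508 probes well above background on all arrays, deviations of same-numbered cultures correlated at 0.187, 0.189, 0.104 and 0.152, all over 0.1, so the numbers of the labels were taken to pair cultures. Of differently numbered pairs, 2 were also above the lowest of these (0.142 and 0.129), so that the pairing is weakly supported. The main fit did not use it, and the replicate number entered as a block only as an alternative. On simulated data for this comparison, 157 of 200 probes changed by a log2 value of 2 were recovered among 55640, and 11 others were called. In the data a far larger share of probes was called, 34.6%, so that these rates hold only for the simulated setting. The genes and lists were chosen with earlier results of these data known. All probes of the 8 genes are named, and in each list up to 2 called genes with the largest rise and fall that were well above background on all arrays of a condition. Rank was by the fitted log2 change, also where the other condition was at background, as for *Dbx1*. Alternatives were quantile normalization, the normexp background correction, both, the authors' values, a filter on dim probes, the mean over probes, other thresholds, slide or replicate number as a block, and leaving out each array. Some genes that this rule or a list names are not reported here.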

Additional observations from a re-analysis of the deposited data

Results flagged for a closer look

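On the main *Neurod1* probe, RA replicate 4 lay apart from the other RA arrays, at -7.78 against -5.94 to -5.63 on the log2 scale relative to the 75th percentile, a gap of 0.853 of the range of the 4 arrays by Dixon's test. It was 1 of 20 groups of 4 arrays examined, and chance marks about 5% of such groups. None of the 4 spots was well above background, and the second *Neurod1* probe did not show it (-7.84 in RA replicate 4).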

How the results depend on the processing

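The falls of *Neurod1*, *Atoh1* and *Neurog3* were called under all 16 alternatives run for each, at log2 changes from -5.90 to -2.90, -4.29 to -0.98 and -2.78 to -1.25. The 5 genes lower after RA became 3 with quantile normalization, with normexp, with both, in the authors' values, and with a test against 1.5-fold (treat), and the 1 gene higher became 0 with normexp, with normexp and quantile normalization, in the authors' values and with the filter on dim probes, which leaves *Olig2* untested. The treat test also left 13 of the 20 related genes called lower. Leaving out 1 array gave 4 to 5 genes lower, 1 higher, and 22 to 24 related genes higher and 18 to 22 lower. The directions of *Neurod4* and *Neurog2* turned: *Neurod4* changed by -0.090 with normexp and by -0.053 without RA replicate 3 (-0.053 to 0.35 over single arrays left out), and *Neurog2* by -0.12 and -0.0027 without RA replicate 3 or 4 (-0.12 to 1.14). The cause was not tested. In the main exact permutation test *Olig1* minus *Olig2* and *Neurod1* minus *Neurod4* already had the smallest p possible, 0.0286. Whether they pass adjustment thus depends on how many of the 5 pairs reach that p, and passing says nothing more about either pair. Differences between relatives passed adjustment under some alternatives: with quantile normalization *Olig1* minus *Olig2* (-3.25), *Neurog1* minus *Neurog3* (2.05) and *Neurod1* minus *Neurod4* (-6.02). With normexp the values were -0.77, 1.80 and -2.94 and *Neurog2* minus *Neurog3* 2.12, with normexp and quantile normalization -0.77, 1.96, -3.03 and 2.30, and in the authors' values -0.76, 1.96, -3.01 and 2.28. With the mean over the probes of a gene, *Neurog1* minus *Neurog3* fell to 0.64 (exact permutation test, adjusted p = 0.286) and *Neurog2* minus *Neurog3* to 1.75 (adjusted p = 0.343). Leaving out 1 array gave -3.52 to -2.97 for *Olig1* minus *Olig2*, 1.40 to 2.17 for *Neurog1* minus *Neurog3*, 2.05 to 3.76 for *Neurog2* minus *Neurog3*, -1.69 to -0.39 for *Neurog1* minus *Neurog2* and -6.20 to -5.36 for *Neurod1* minus *Neurod4*, and without untreated replicate 3 the first, the second and the last passed. With the replicate number as a block, 19384 probes were called against 19240, and of the 8 genes 4 were lower and 1 higher, with no call but that of *Neurog1* changed. Within pairs, an exact sign-flip test of 4 pairs cannot go below p = 0.125. Leaving out each array from the bounds and from the folds of related genes was chosen after seeing the data. Signals near background limit what the arrays show for *Neurog1*, *Neurog2*, *Neurod4*, *Olig1* and *Olig2*, and for *Neurod1* and *Atoh1* after RA. With normexp, which adds an offset, the changes called were smaller, *Neurod1* and *Atoh1* included.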
